A study of Mus musculus with 6 samples.

Results

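The replication-dependent histone genes of the mouse were followed in total RNA from the hippocampus, the brain region that forms new memories and also makes new neurons in adult life. Members were all genes of the deposited table whose symbol starts with Hist, a cluster number from 1 to 4 and h, which gave 67 of 32201 genes. The libraries came from male C57BL/6N mice of 8 weeks that had all gone through chronic unpredictable mild stress, a rodent model of depression. Of these, 3 libraries were from stressed mice treated with baicalin, a flavone glucuronide of the root of Scutellaria baicalensis, at 20 mg/kg, and 3 were from stressed mice treated with saline. Unstressed controls are not analysed here, so stress is shared by both groups. The labels do not say that each library is a separate animal, and p-values therefore measure the spread between these libraries, which may be technical.

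Histones are the proteins around which DNA is wound. The core histones H2A, H2B, H3 and H4 form the nucleosome, and the linker histone H1 binds where DNA enters and leaves it. The replication-dependent genes lie in clusters, have mostly no introns and are transcribed mainly in S phase, when new DNA must be packaged. Their messages are known to end just after a short stem-loop in place of a poly(A) tail. The stem-loop binding protein Slbp holds this structure, and processing factors cut the message behind it. Some of these genes can also give longer, polyadenylated messages in cells that have left the cell cycle. Variant histones such as H3.3 and H2A.Z are made throughout the cell cycle from genes with introns and ordinary poly(A) tails. The libraries were made from RNA depleted of ribosomal RNA and primed at random, so messages with and without a poly(A) tail could enter them.

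The 3′ ends are shown because they define this class of gene. In the GENCODE M21 annotation of GRCm38, 64 members are protein coding and 3 are pseudogenes, and all 67 have the coordinates of the deposited table. A 3′ untranslated region is annotated for 53 members. In the longest annotated transcript of each, a perfect stem of 6 bases that starts with GG, around a loop of 4 bases that starts with T, was found in 45 of them, 22 to 59 bases after the stop codon. The sequences of 6 members that averaged 1 FPKM or more (sequenced fragments scaled to transcript length and library size) follow, 5′ to 3′ as DNA letters, with the stem and loop in capitals and up to 5 bases on each side.
Hist1h1c: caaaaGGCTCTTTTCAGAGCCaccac
Hist3h2a: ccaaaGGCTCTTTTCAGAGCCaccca
Hist3h2ba: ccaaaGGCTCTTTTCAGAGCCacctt
Hist2h3c1: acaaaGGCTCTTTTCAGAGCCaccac
Hist1h4h: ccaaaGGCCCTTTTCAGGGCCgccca
Hist1h4i: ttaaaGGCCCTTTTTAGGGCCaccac
The core of the first 4 sequences, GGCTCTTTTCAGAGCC, was shared by 25 members, none of them an H4 gene. The core of Hist1h4h was found in 7 members, all of them H4 genes. In all, 8 different cores were found.

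The annotated gene models of abundant members reach well past this stem-loop or lack it. The last 30 bases of the annotated transcript are shown for 3 of them, with the polyadenylation signal AATAAA in capitals.
Hist1h1c: ttctAATAAAaagcgtttagttttcattca
Hist3h2ba: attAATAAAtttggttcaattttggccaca
Hist2h2be: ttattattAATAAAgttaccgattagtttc
Transcripts that stop within 100 bases of the stem-loop are annotated for 22 members, 2 of which reached 1 FPKM, and these 22 held 2.33% of the 48652 counts given to histone members. Transcripts that run on for over 100 bases are annotated for 23 members, of which 7 reached 1 FPKM, and these held 66.1% of the counts. A further 8 members have an annotated 3′ untranslated region with no such stem-loop, 2 of which reached 1 FPKM, and they held 30.8%. The last 50 bases hold AATAAA in 11 members, of which 5 reached 1 FPKM, and these 11 held 64.6% of the counts. Because a longer gene model can also collect more reads, these shares describe the annotation and the counting together. Which 3′ ends the RNA molecules had was not measured.

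Hist1h2bc, the member with the highest mean level, shows the second kind of end. Its annotated transcript has 2 exons, of which the first ends 9 bases after the stop codon and the second, of 733 bp, starts after an intron of 7554 bp. The spliced model therefore skips the place where the stem-loop lies in other members.

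Levels were concentrated in a few members. Of the 67 genes, 12 averaged 1 FPKM or more, 18 lay between 0.1 and 1 FPKM, and 37 lay below 0.1 FPKM. Hist2h3b had no count in any library, where 3 counts would be 0.0441 to 0.0489 CPM (counts scaled to the library total). All of its stretches of 100 bases are shared with other annotated genes, so the lack of counts does not show that the gene is silent. A total of 10 counts or fewer over all libraries was found for 25 members. The 5 members with the most counts held 83.4% of the histone counts, and the 12 members above 1 FPKM held 92.8%. H2B genes held 46.9% of the counts, H2A genes 34.0%, the H1 genes 10.9%, H3 genes 4.13% and H4 genes 4.10%. By cluster, the 3 Hist3 genes on chromosome 11 held 43.0% of the counts, against 43.7% for the 55 Hist1 genes on chromosome 13 and 13.1% for the 8 Hist2 genes on chromosome 3. Hist4h4, the lone member on chromosome 6, held 0.175%.

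**Figure D1:**
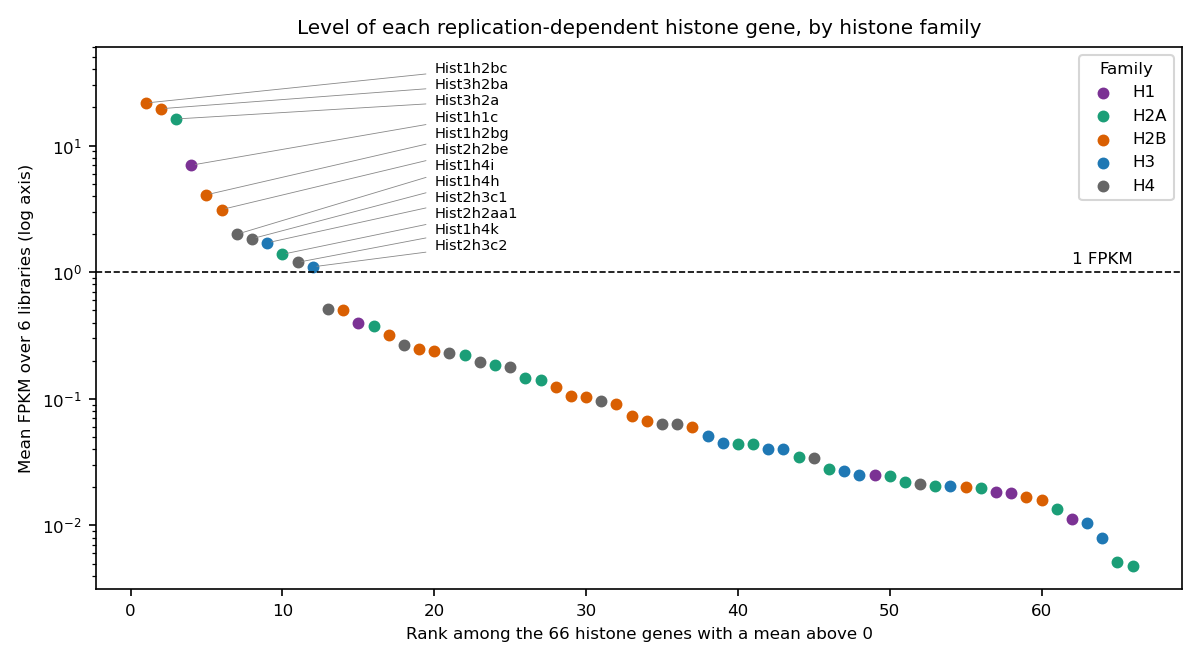
Mean FPKM over the 6 libraries (log axis) of each histone member, ranked from highest to lowest and coloured by family; Hist2h3b, at 0, is not drawn. The 12 named members lie above the dashed line at 1 FPKM, and the next member, Hist2h4, lies at 0.514 FPKM.

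Members of these families are close copies, which limits how far reads can be told apart. At least 1 stretch of 100 bases was shared with another annotated gene by 61 of the 67 members, and the median member shared 34.3% of its stretches. Sharing was low for Hist1h1c (5.1%) and Hist3h2ba (4.9%) and absent for Hist2h2be (0%), while Hist2h2aa1, Hist2h3b and Hist2h3c1 shared every stretch. The sources used here give neither how reads that match several genes were assigned nor whether strand was used. In bulk tissue, fewer cells of a type and less RNA per cell cannot be told apart.

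The comparison of baicalin with saline asks whether histone messages differ between treated and untreated stressed mice. Of the 12 members tested, 0 passed an adjusted p of 0.05 in edgeR's quasi-likelihood test (Benjamini-Hochberg over all 13153 genes tested, of which 0.0456% passed). At an unadjusted p under 0.05 there were 3 members, against 11.8% of all genes tested, with 1 member higher (6.34% of all genes) and 2 lower (5.46%). The higher member was Hist2h2aa1, whose mean of 1.38 FPKM passed the filter only through 8.25 FPKM in baicalin library 3. It is kept in the counts and the median given here. Groups that do not overlap were found for 3 members, against 19.4% of all genes tested. DESeq2 and limma also called 0 members, with 1 and 2 at an unadjusted p under 0.05. Over all 13153 genes, DESeq2 called 211 and limma on log2(FPKM + 1) called 8, with 1556 and 1539 at an unadjusted p under 0.05. The log2 change of baicalin over saline was above 0 in 7 members and below 0 in 5, with a median of 0.007, against a share above 0 of 49.8% and a median of -0.0006 over all genes tested. Summed over all 67 members, the level was 129.1, 120.8 and 125.8 CPM in the baicalin libraries and 135.5, 118.9 and 124.4 CPM in the saline libraries, scaled by TMM (trimmed mean of M values). These groups overlap, and the ratio of their means was 0.992.

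The summed level of the 6 clustered H1 genes lay lower in every baicalin library than in any saline library. Only 1 of them, Hist1h1c, reached 1 FPKM and was tested, and it did not pass the adjusted threshold. The linker variants H1f0 and H1fx are not in this sum and are given further below. Hist1h1c (ENSMUSG00000036181, chromosome 13, 23738808 to 23740367, plus strand, 1 exon) encodes the linker histone H1.2, and it held nearly all counts of the clustered H1 genes. It had 722, 705 and 687 counts in the baicalin libraries, against 892, 853 and 1028 in the saline libraries. As FPKM these were 6.30, 6.09 and 6.28 with baicalin and 7.58, 7.23 and 8.50 with saline. The 3 baicalin values lay close together and all below the lowest saline value. The means were 6.23 ± 0.117 FPKM with baicalin and 7.77 ± 0.657 FPKM with saline (SD, n = 3 each). The fitted log2 change was -0.31 ± 0.09 (SE), a fold of 0.806, with an unadjusted p of 0.0108 and an adjusted p of 0.342 in edgeR. Groups that do not overlap in this direction were found for 9.52% of all genes tested.

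The other clustered H1 genes were scarce. Hist1h1e, which encodes the linker histone H1.4, had 49, 28 and 60 counts with baicalin and 87, 67 and 50 with saline, and its groups overlap. One of its neighbours, Hist1h2be, has annotated exons that overlap it. Hist1h1b, which encodes H1.5, was near the detection limit, with 0, 0 and 4 counts with baicalin and 1, 0 and 4 with saline. Of the 6 H1 genes, 3 had 10 counts or fewer in all. Summed over the 6, the level was 12.3, 11.4 and 12.7 CPM with baicalin and 15.1, 14.2 and 16.1 CPM with saline, a ratio of means of 0.804, set almost wholly by Hist1h1c.

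Among H2A genes, Hist3h2a (ENSMUSG00000078851, chromosome 11, 58954685 to 58956830, plus strand) held the most counts of any member, 31.9% of the total. Its level was 16.7, 16.2 and 15.7 FPKM with baicalin and 17.5, 15.3 and 15.9 FPKM with saline, so the groups overlap. Its log2 change was 0.002 ± 0.07 (SE), the smallest of the 12. The first exon of Trim17, which encodes a ubiquitin ligase, overlaps it, and 29.8% of the 100-base stretches of Hist3h2a are shared with that gene and a small predicted gene. Trim17 had 329, 420 and 335 counts with baicalin and 519, 511 and 489 with saline (log2 change -0.41, adjusted p = 0.344 in edgeR). The summed H2A level was 43.4 ± 2.47 CPM with baicalin and 42.2 ± 2.71 CPM with saline (SD, n = 3 each), a log2 ratio of 0.04 that was -0.009 without baicalin library 3, the library that holds nearly all reads of the H2A gene Hist2h2aa1.

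H2B genes held the largest share of counts, and their levels were close in the 2 groups. Hist1h2bc (ENSMUSG00000018102, chromosome 13, 23684199 to 23692908, plus strand) was at 24.0, 20.0 and 21.2 FPKM with baicalin and 24.4, 19.9 and 20.6 FPKM with saline. Its groups overlap almost completely, and the log2 change was 0.01 ± 0.11 (SE). Hist3h2ba (ENSMUSG00000056895, chromosome 11, 58948920 to 58949533, plus strand) was at 19.1, 23.7 and 20.0 FPKM with baicalin and 18.4, 17.4 and 18.7 FPKM with saline. Every baicalin value lay above every saline value, which was so for 9.93% of all genes tested, and the log2 change was 0.21 ± 0.10 (SE), with an adjusted p of 0.453 in edgeR. Without baicalin library 2 it was 0.12, and its values over all alternatives ran up to 0.27. Hist1h2bg was at 4.58, 3.58 and 3.65 FPKM with baicalin and 4.54, 3.84 and 4.31 FPKM with saline, again with overlap. Hist2h2be, which is outside the rule for named genes and was picked after its values were seen for its lack of shared sequence, had 687, 633 and 521 counts with baicalin and 592, 539 and 683 with saline. Its groups overlap as well. The summed H2B level was 60.1 ± 3.21 CPM with baicalin and 57.9 ± 4.78 CPM with saline (SD, n = 3 each), a log2 ratio of 0.05 that was -0.004 without saline library 2.

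**Figure D2:**
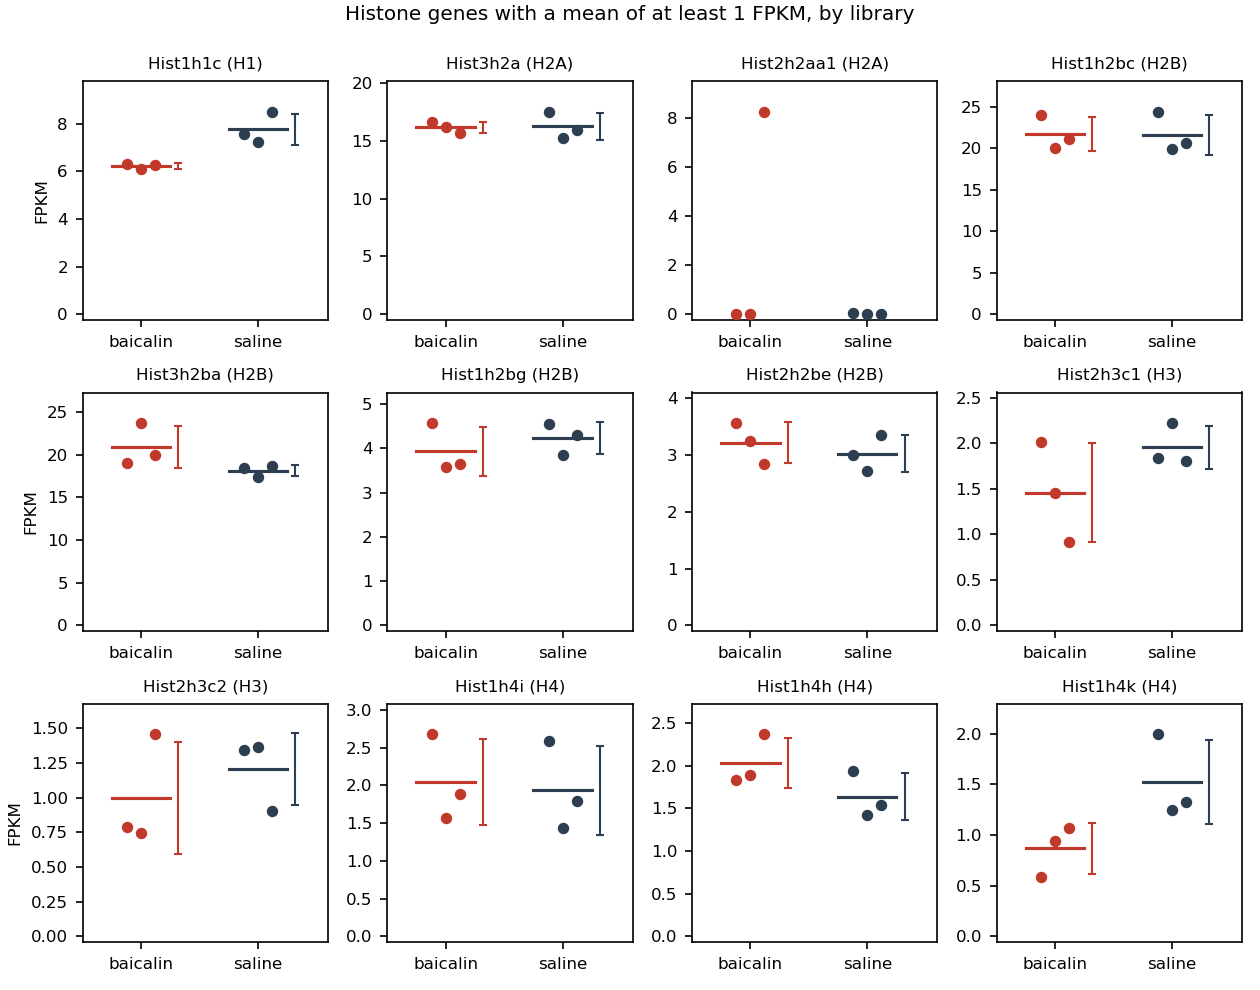
FPKM in each library (points) of the 12 members that averaged 1 FPKM or more, with baicalin left of saline in each panel; horizontal lines are means and vertical bars ± 1 SD (n = 3), both left out for Hist2h2aa1, whose reads came almost wholly from 1 library. Hist1h1c and Hist1h4k lie lower and Hist3h2ba higher in every baicalin library than in any saline library.

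H3 genes of this class were low. Hist2h3c1 (chromosome 3, 96246685 to 96248509, plus strand) had 269, 196 and 118 counts with baicalin and 254, 307 and 255 with saline. Its log2 change was -0.42 ± 0.28 (SE), the groups overlap, and all of its sequence is shared with other annotations. Without baicalin library 1 the change was -0.72, and without baicalin library 3 it was -0.18. The predicted gene Gm20634, which covers all of Hist2h3c1, had counts in baicalin library 3 and saline library 1 only. Its part in the change of Hist2h3c1 was not tested. Hist2h3c2 (chromosome 3, 96238108 to 96239127, minus strand) had 59, 57 and 105 counts with baicalin and 104, 106 and 72 with saline, and its groups overlap too (log2 change -0.26 ± 0.33). For this gene leaving out 1 library gave -0.65 (baicalin library 3) to -0.09 (baicalin library 2). Hist1h3f, the third H3 gene by level, was at 0.0507 FPKM, and its counts were 0, 3 and 12 with baicalin and 4, 2 and 9 with saline. Of the 12 H3 genes, 7 had 10 counts or fewer in all. The summed H3 level was 5.41, 4.25 and 4.04 CPM with baicalin and 5.71, 6.63 and 5.05 CPM with saline, with 1 baicalin library inside the saline range.

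The H4 genes encode the same or nearly the same small protein, and none of the 3 tested passed the adjusted threshold. Hist1h4k (chromosome 13, 21750194 to 21750505, minus strand) had 14, 22 and 24 counts with baicalin and 48, 30 and 33 with saline. Every baicalin count was below every saline count, and the log2 change was -0.80 ± 0.33 (SE), with an unadjusted p of 0.0454 and an adjusted p of 0.417 in edgeR. Its annotated transcript of 312 bp has no untranslated regions, and 64.3% of its 100-base stretches are shared with other genes. Hist1h4h (chromosome 13, 23531050 to 23531519, plus strand) had 64, 66 and 79 counts with baicalin and 69, 51 and 57 with saline, a log2 change of 0.32 ± 0.21 (SE) with overlap. Hist1h4i (chromosome 13, 22040636 to 22041362, minus strand) had 144, 85 and 97 counts with baicalin and 142, 79 and 101 with saline. Library 1 of each group was the highest for this gene, and the groups overlap. The summed H4 level was 5.08 ± 0.337 CPM with baicalin and 5.23 ± 1.21 CPM with saline (SD, n = 3 each), a log2 ratio of -0.04 that was 0.16 without saline library 1 and 0.01 without baicalin library 2.

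**Figure D3:**
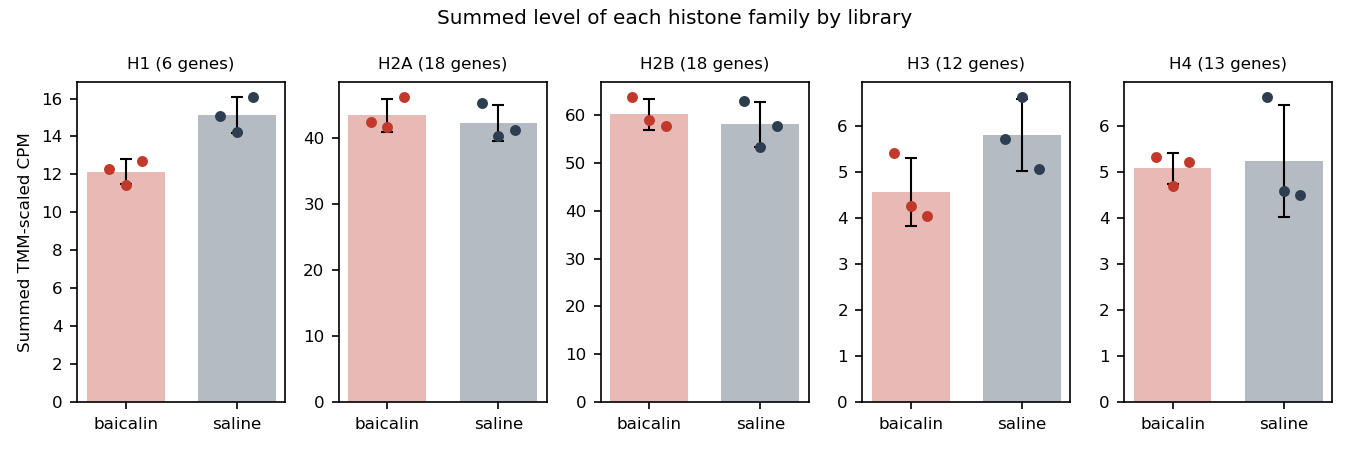
TMM-scaled CPM summed over the members of each family, with each library as a point, bars as means and error bars as ± 1 SD (n = 3), baicalin left of saline. The H1 sum is lower in every baicalin library than in any saline library (ratio 0.804), and the groups overlap in the other families.

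**Figure D4:**
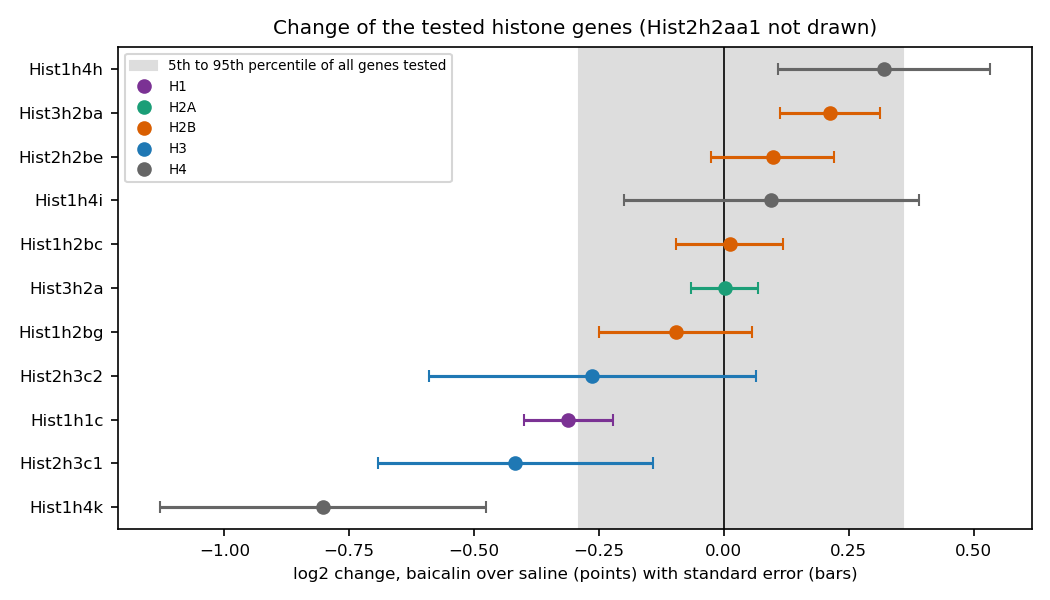
Fitted log2 change, baicalin over saline (points), with its standard error (bars) for 11 of the 12 tested members, coloured by family; the grey band runs from the 5th to the 95th percentile of all 13153 genes tested, -0.29 to 0.36. Hist2h2aa1 is not drawn because its reads came almost wholly from 1 library. Hist1h4k, Hist2h3c1 and Hist1h1c lie left of the band, and 8 members lie inside it. Hist2h3c1 lies wholly within Gm20634, a predicted gene with 164 counts in baicalin library 3 and 631 in saline library 1. Whether the split of reads between these 2 annotations shaped the change of Hist2h3c1 was not tested.

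The third member with an unadjusted p under 0.05 was Hist2h2aa1, which encodes an H2A, and its counts were 0, 0 and 339 with baicalin and 3, 0 and 0 with saline. Nearly every read was thus in baicalin library 3, and no fold change is given. The gene lies in the Hist2 cluster (chromosome 3, 96245497 to 96246082, plus strand), and Gm20634, a predicted gene of 1 exon on the same strand (96245554 to 96248509), covers most of it and all of Hist2h3c1. Gm20634 had 0, 0 and 164 counts with baicalin and 631, 0 and 0 with saline. The 3 annotations together had 269, 196 and 621 counts with baicalin and 888, 307 and 255 with saline. In the 4 libraries where Gm20634 had none, Hist2h3c1 held all of the counts of the 3. Whether the authors' assignment of reads among them differed between libraries was not tested.

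**Figure D5:**
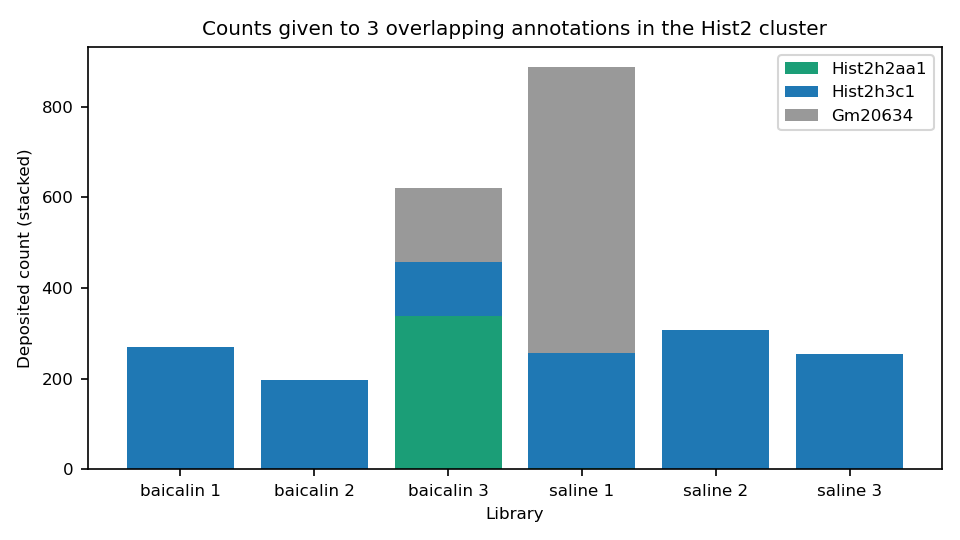
Deposited counts of Hist2h2aa1, Hist2h3c1 and Gm20634, stacked for each library, with the 3 baicalin libraries left of the 3 saline libraries. Hist2h2aa1 has 339 counts in baicalin library 3 and at most 3 elsewhere, and Gm20634 has counts in that library and in saline library 1.

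The 55 members under 1 FPKM had 0 to 1007 counts in all. Groups that do not overlap were found for 3 of them in the higher and 2 in the lower direction, against 9.09% of the 17613 such genes with a count. One of these was Hist1h2ac, the third H2A gene by level, with 45, 53 and 46 counts with baicalin and 82, 119 and 76 with saline. All 3 baicalin counts were below the saline counts. In a fit that also kept genes down to 0.1 FPKM its log2 change was -0.87 ± 0.26 (SE), with an unadjusted p of 0.0136 and an adjusted p of 0.466 in edgeR.

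Hist1h2ac shares its promoter with Hist1h2bc, and the stretch between them is shown because the levels of the 2 genes were far apart. It is the RefSeq window of Hist1h2ac, chr13:23683910-23684209 on the minus strand of GRCm38.p6. Capitals mark ATTGG and CCAAT, which are the same box on opposite strands, TGCAAAT, which is ATTTGCA on the opposite strand and part of the octamer known from H2B promoters, and TATAAA.
Hist1h2ac: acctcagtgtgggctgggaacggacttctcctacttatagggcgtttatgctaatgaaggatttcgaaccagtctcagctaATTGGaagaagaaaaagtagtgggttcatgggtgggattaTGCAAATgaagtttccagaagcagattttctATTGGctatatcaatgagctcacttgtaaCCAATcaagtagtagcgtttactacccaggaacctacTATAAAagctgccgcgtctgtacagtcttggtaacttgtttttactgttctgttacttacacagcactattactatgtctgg
The annotated starts of the 2 genes lie 251 bp apart. Hist1h2bc averaged 21.7 FPKM and Hist1h2ac 0.375 FPKM, a ratio of 57.8. There were 14 such pairs of members that start within 1000 bp of each other in opposite directions, 173 to 660 bp apart, and 13 of them joined an H2A to an H2B gene. In 4 pairs, 1 gene reached 1 FPKM, and in no pair did both. The other 3 of these, named after their values were seen, were Hist3h2a over the pseudogene Hist3h2bb-ps with a ratio of 68.4, Hist1h2bg over Hist1h2ae with 28.2 and Hist2h2be over Hist2h2ac with 17.0.

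RefSeq promoter windows, 250 bases before to 50 after the start, were matched for 58 members and searched on both strands. TATAAA was found in 58.6% of them, against 13.6% of all 32817 promoters, and CCAAT in 84.5%, against 37.4%. Windows of pairs that start in opposite directions can overlap, so the same site can be counted for both genes. This was so for TATAAA in Hist1h2ad and Hist1h2bf, and in Hist1h2ah and Hist1h2bk. Hist1h2ak and Hist1h2bn, Hist1h2an and Hist1h2bp, and Hist1h2ae and Hist1h2bg also hold such a shared site. CCAAT was in every H1, H2A, H2B and H3 promoter matched and in 25% of the H4 promoters. ATTTGCA was in 19% of members, against 4.03% of all promoters, and lay only in H2A (40%) and H2B (33.3%) windows. Hist1h2be has 2 windows, of which only the first listed was counted. ATTTGCA is absent from that window and present in the second. AAACACA, known as the H1 box, was in 5 of the 6 H1 windows (83.3%), against 7.19% of all promoters. The window of Hist1h1c is given as chr13:23738557-23738856 on the plus strand of GRCm38.p6, with AAACACA and CCAAT in capitals.
Hist1h1c: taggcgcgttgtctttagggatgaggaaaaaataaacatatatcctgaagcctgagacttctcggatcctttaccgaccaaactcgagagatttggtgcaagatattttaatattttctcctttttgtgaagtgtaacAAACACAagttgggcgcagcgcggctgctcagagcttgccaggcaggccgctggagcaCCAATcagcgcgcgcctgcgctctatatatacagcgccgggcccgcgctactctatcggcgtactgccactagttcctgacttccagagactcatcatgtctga
These matches describe letters in the windows and say nothing of what was bound there.

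Per length, the clustered H3, H2A and H1 genes lay below the variant histones of the same class, which dividing and resting cells both use. Summed over the 12 replication-dependent H3 genes, the level was 2.77 ± 0.273 FPKM with baicalin and 3.38 ± 0.541 FPKM with saline (SD, n = 3 each). H3f3a, H3f3b and H3f3c, the H3.3 genes of the table, summed to 92.6 ± 8.24 FPKM with baicalin and 88.8 ± 4.33 FPKM with saline. The 6 clustered H1 genes summed to 6.61 ± 0.276 FPKM with baicalin and 8.32 ± 0.535 FPKM with saline. The linker variants H1f0 and H1fx together stood at 62.6 ± 3.76 FPKM with baicalin and 56.2 ± 2.25 FPKM with saline. For the 18 clustered H2A genes the sums were 20.0 ± 4.08 FPKM with baicalin and 17.8 ± 1.31 FPKM with saline. For 6 H2A variants they were 80.3 ± 2.84 FPKM with baicalin and 74.4 ± 2.16 FPKM with saline. Of 13 variant genes in the table, 11 were tested. In edgeR 10 of these had a log2 change above 0, with a median of 0.13, against -0.0006 over all genes tested, and 0 passed the adjusted threshold. When levels were scaled as TPM, 7 were above 0 and their median was 0.06, against -0.07 over all genes tested.

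Of the 11 variants tested, 3 had an unadjusted p under 0.05 and a higher fitted level with baicalin, against 6.34% of all genes tested in that direction, and 0 had one with a lower level. H2afz, which encodes H2A.Z, was at 23.0, 22.6 and 23.3 FPKM with baicalin and 20.4, 18.9 and 20.2 FPKM with saline (log2 change 0.22 ± 0.06 SE, unadjusted p = 0.0071 and adjusted p = 0.323 in edgeR). H3f3b was at 43.5, 48.6 and 48.2 FPKM with baicalin and 40.7, 39.2 and 43.9 FPKM with saline, and 1 saline value lies above 1 baicalin value. H1f0, the linker histone H1.0 of differentiated cells, was at 49.7, 54.4 and 53.1 FPKM with baicalin and 48.2, 45.8 and 49.8 FPKM with saline. Going by TMM-scaled counts, its groups do not overlap. H3f3a, which encodes the same H3.3 protein as H3f3b, had a log2 change of -0.16 ± 0.12 (SE). Hist1h1c and H1f0 thus had fitted changes of opposite sign, and the difference between them was not tested.

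The machinery that makes and trims histone messages showed no gene past the adjusted threshold in edgeR. Slbp was at 1.94, 2.13 and 2.80 FPKM with baicalin and 2.18, 2.14 and 2.03 FPKM with saline, with overlap (log2 change 0.12 ± 0.15). Of 17 tested genes of 3′ end processing and decay, 10 had a log2 change above 0, with a median of 0.03. Ptbp1, an RNA-binding protein, had the smallest p of this list (log2 change 0.33 ± 0.09, unadjusted p = 0.0108 and adjusted p = 0.342 in edgeR). Next among the positive changes came Cpsf3, the enzyme that cuts the message (0.09 ± 0.06). Among the negative changes the smallest p belonged to Cstf2 (-0.14 ± 0.14) and to Lsm11, a core protein of the U7 particle (-0.08 ± 0.08). In the list of histone gene transcription, 7 of 8 tested genes had a change below 0, with a median of -0.08. Hinfp, a zinc finger protein that binds H4 promoters, was at 2.09, 2.07 and 2.01 FPKM with baicalin and 2.35, 3.42 and 2.51 FPKM with saline. Its groups do not overlap (log2 change -0.42 ± 0.15, unadjusted p = 0.0273 and adjusted p = 0.393 in edgeR). Gon4l, a nuclear protein, was lower in every baicalin library as well (log2 change -0.15 ± 0.06). The lone positive change was that of Coil, the marker protein of Cajal bodies (0.01 ± 0.06). Npat, the coactivator that cyclin E and Cdk2 switch on at histone clusters, had a log2 change of -0.08 ± 0.11, and Casp8ap2, a partner in both steps, averaged 0.851 FPKM and was not tested. Histone chaperones, which carry histones to DNA, had 9 of 18 changes above 0 and a median of -0.005. The smallest p in each direction were those of Rbbp4 (log2 change 0.07 ± 0.04) and Ssrp1 (0.22 ± 0.12), and of Hjurp (-0.21 ± 0.10) and Atrx (-0.20 ± 0.10), which with Daxx deposits H3.3.

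Genes of S phase and mitosis were mostly scarce, as 24 of 38 lay under 1 FPKM. Mki67, which marks cycling cells, averaged 0.179 FPKM and Top2a, which untangles DNA in mitosis, 0.178 FPKM. Pcna, the sliding clamp of replication, was at 15.6, 16.8 and 16.3 FPKM with baicalin and 14.8, 17.2 and 15.3 FPKM with saline, and its groups overlap. Of the 14 genes tested, 9 had a log2 change above 0, with a median of 0.04. Mcm7, a subunit of the replicative helicase, had the smallest p (log2 change 0.23 ± 0.09, unadjusted p = 0.0445 and adjusted p = 0.415 in edgeR). It was followed by Rrm1, a subunit of ribonucleotide reductase (0.11 ± 0.07), and in the other direction by the D cyclins Ccnd1 (-0.17 ± 0.11) and Ccnd2 (-0.13 ± 0.12).

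Each baicalin library held 61303274 to 64983755 counts and each saline library 65989141 to 67957752, so every baicalin total was below every saline total. The mitochondrial share was 7.71 to 8.69% in baicalin libraries and 7.18 to 7.82% in saline libraries. Markers of 10 cell types were looked at beside the members. Neuron markers summed to 10581 to 11003 CPM with baicalin and 10989 to 11387 CPM with saline, and 3 of 9 had groups that do not overlap and lay lower with baicalin, against 9.52% of all genes tested in that direction. The same was so for 2 of 5 tested markers of progenitors and new neurons and 1 of 6 of the meninges. Groups that do not overlap and lay higher with baicalin were found for 2 of 8 markers of astrocytes, 2 of 8 of endothelium and 2 of 9 of microglia, against 9.93% of all genes tested. Astrocyte markers summed to 3536 to 3875 CPM with baicalin and 3479 to 3842 CPM with saline, endothelial markers to 273.2 to 312.8 CPM with baicalin and 247.4 to 292.3 CPM with saline, and microglial markers to 355.4 to 403.0 CPM with baicalin and 349.4 to 377.0 CPM with saline. Meningeal markers summed to 222.2 to 322.6 CPM with baicalin and 188.3 to 1116 CPM with saline, and those of progenitors and new neurons to 103.7 to 138.1 CPM with baicalin and 115.2 to 126.5 CPM with saline. None of the markers of oligodendrocytes, their precursors, choroid plexus or blood cells that were tested had groups that do not overlap, and no marker passed the adjusted threshold in edgeR. No marker of the 10 cell type lists was at 0 in all libraries, and their part in the values of Hist1h1c and other members was not tested. Tested members had a median exon length of 873.5 bp, against 4097.5 bp for all genes tested, and the 3569 genes within the members' range of lengths had a median log2 change of 0.08. With the trend over length removed, an alternative chosen after seeing the data, the members' median was -0.07 and the change of Hist1h1c -0.39.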

How the data were processed

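RNA sequencing of hippocampus gave 1 table for 6 libraries. Per the labels' protocols, RNA was depleted of ribosomal RNA with biotinylated probes, cut to fragments of 100 to 300 bp and reverse transcribed from random primers with actinomycin D. The authors deposited a read count and an FPKM value per gene and library. The build mm10 and the tools HISAT2, StringTie, limma, DESeq2 and bcl2fastq 2.0 are named in the submitters' processing notes. Their roles and settings, the handling of reads that match several genes and the use of strand are not given there. Another 12 columns of sample values fit no label and were left out.

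The 13153 genes that averaged 1 FPKM or more were tested with edgeR 4.0.16 in R 4.3.3 by the quasi-likelihood F test on the deposited counts, with TMM scaling, a term for treatment and Benjamini-Hochberg adjustment over all genes tested at a threshold of 0.05. Alternatives used other filters and scalings, DESeq2 1.42.0, limma 3.58.1 on log2(FPKM + 1) and log2(FPKM + 0.1), a replicate block and each library left out. Standard errors were derived from the log2 change and the F statistic. The fit was tested on simulated data. Summed levels are described without a test. Limits from 3 counts cover counting error only.

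The members and the lists of other genes were chosen with earlier results of these data known. Members were named by a rule: those with an unadjusted p under 0.05, the 3 highest of each family by mean FPKM, and the tested member with the largest change in each direction per family. From each other list the rule took the smallest 2 unadjusted p in each direction, and 10 genes were always named. Stem-loops and shared stretches of 100 bases were searched in GENCODE M21 transcripts, and promoter windows are RefSeq's for GRCm38.p6. Protein sequences were not used here.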

Additional observations from a re-analysis of the deposited data

How the results depend on the processing

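Histone members past the adjusted threshold numbered 0 in edgeR, DESeq2, limma, every filter and scaling tried, the replicate block and each library left out, with 1 to 4 at an unadjusted p under 0.05 and a smallest member adjusted p of 0.173 (DESeq2). Over all genes, calls numbered 6 in edgeR, 211 in DESeq2 and 0 with the replicate block (1120 at an unadjusted p under 0.05), and 2 to 39 when a library was left out (39 without baicalin library 1 and 2 when baicalin library 3 was omitted; omitting saline library 2 gave 10 and saline library 3 gave 14). The cause of these differences was not tested. The median log2 change of the members stayed between -0.09 and 0.07, within 1 SD between libraries (0.106). The log2 change of Hist1h1c was -0.37 to -0.24 over 17 alternatives, below 0 in all 17, with adjusted p from 0.173 to 0.638. Members whose change was close to 0 turned sign. Hist3h2a was at -0.00079 with genes down to 0.1 FPKM, -0.0065 with genes of at least 5 FPKM, -0.0075 with library totals alone, -0.073 with TPM scaling, -0.0030 and -0.0031 in the limma fits and -0.037 to 0.058 with a library left out. Hist1h2bc was at -0.064 with TPM scaling and -0.068 to 0.11 with a library left out. With a library left out, Hist1h4i ran from -0.15 to 0.36, Hist1h4h from 0.18 to 0.46, Hist1h2bg from -0.22 to -0.03 and Hist2h2be from 0.01 to 0.18. Hist2h2aa1 is given no fold under any alternative, since its saline libraries hold 3 counts in all and its baicalin libraries hold none without library 3. The ratio of the H1 sums was -0.40 on the log2 scale with TPM scaling, against -0.32, and that of the H2A sums was 0.17 from FPKM, against 0.04. TPM scaling moved the median of all genes to -0.07. Libraries with the same replicate number had deviations from their group means that correlated at 0.091, 0.052 and -0.024. Those with different numbers correlated at -0.098 to 0.055. With 3 libraries per group these values cannot decide whether the numbers mark pairs. The 25 members with 10 counts or fewer in all were not tested in the main fit. The edgeR fit of every gene with a count tested 66 members, and 0 of them passed the adjusted threshold.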
